A study of Homo sapiens with 6 samples.

Results

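Replication-dependent histone genes were followed by RNA-Seq in MCF10A cells, an established line of human mammary epithelial cells, grown with or without growth factors. Members were taken by name, as the genes H1-1 to H1-5 and all genes named H2AC, H2BC, H3C or H4C with a number, and 13 pseudogenes were left out. The Gencode v44 annotation of hg38 names 69 such genes, and 55 of them are among the 19198 genes of the deposited table. They comprise 5 H1, 13 H2A, 17 H2B, 9 H3 and 11 H4 genes, of which 47 lie on chromosome 6, 7 on chromosome 1 and 1 on chromosome 12. The 3 control samples were grown with hydrocortisone at 0.5 µg/ml, cholera toxin at 100 ng/ml, 20 ng/ml of EGF and 10 µg/ml of insulin, and the 3 depleted samples had none of these 4 additions. Horse serum at 5% was present in both conditions, so depleted cells were not without serum. The labels give 3 samples a condition and were followed, although the series' own design entry speaks of 2. All samples come from 1 cell line, the study's methods describe depletion until cell shape changed without tying a day to these RNA samples, and nothing says whether samples of a condition were separate cultures. P-values therefore measure only the spread between these libraries, which may be technical.

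Replication-dependent histone genes encode the core histones H2A, H2B, H3 and H4, which form the nucleosome, and the linker histone H1, which binds the DNA between nucleosomes. Their mRNAs accumulate when DNA is copied in S phase and are removed when replication ends. They are unusual among mRNAs in that most lack introns and end in a conserved stem-loop in place of a poly(A) tail. The stem-loop is bound by SLBP and the transcript is cut downstream of it by a complex guided by the U7 snRNP. The libraries were made from total RNA depleted of ribosomal RNA, so transcripts without a poly(A) tail could be read.

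The stem-loop is shown because it defines this gene class, and because all 55 listed members carried it in their canonical Gencode v44 transcript. It was searched as 6 paired bases, beginning with GG and ending with CC, around a loop of 4 bases that starts with T and has no G, with at most 1 stem position unpaired. The stem was fully paired in 53 of the 55. In 54 of the 55 it lay within 30 bases of the annotated transcript end, with a median of 5 bases after it, and in H2BC21 it was followed by 1729 further bases. There were 10 forms, and 31 members shared the commonest. Below, capitals mark the 2 arms of the stem and 5 bases are given on each side. After the stem of H1-2 only 4 are given, because its annotated transcript ends there.
H1-2: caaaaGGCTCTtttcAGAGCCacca
H2AC6: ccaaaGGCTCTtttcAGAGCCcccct
H2AC11: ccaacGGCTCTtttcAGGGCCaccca
H2BC5: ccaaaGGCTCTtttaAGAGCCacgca
H2BC21: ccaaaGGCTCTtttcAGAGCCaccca
H3C11: caaaaGGCTCTtttcAGAGCCcctca
H4C5: tcaaaGGCCCTtttcAGGGCCgccca
H4C13: tcaaaGGCCCTtctcAGGGCCaccca
H4C9: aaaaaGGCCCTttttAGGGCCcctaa
H2AC11 is one of the 2 members with an unpaired stem position. All 11 listed H4 genes carried the GC-richer stem that is seen above in H4C5, H4C13 and H4C9. The loop of H4C13 had a C at its second base, as did those of H3C6 and H2BC10.

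Before the values, 3 facts about the libraries bear on them. The recovered reads on genes ranged from 7472418 to 28672630 per library, and a count of 3 reads corresponds to between 1.76 and 6.71 normalized counts, which covers counting error only. Depleted replicate 1 stood apart in some epithelial markers, with 609.6 normalized counts of CDH1 (E-cadherin) and 562 of KRT5. Each of the other 5 libraries had at least 12960.7 of CDH1 and 10908.3 of KRT5. Depleted replicate 1 also had the least EPCAM (152.9) and TP63 (8.2) but the most KRT14 (980.3). Its KRT8 (7755) and KRT18 (8660) lay inside the range of the other libraries. The epithelial marker TP63 was called lower (log2 difference -4.18, adjusted p = 0.027 by limma) and the endothelial marker CDH5 was called higher (3.37, adjusted p = 0.028). The other epithelial markers EPCAM, KRT14, KRT8 and KRT18, the luminal markers ESR1 and GATA3 and the endothelial marker PECAM1 were not called with limma on all 6 libraries, nor were CDH1 and KRT5, and the leukocyte marker PTPRC lay between 0 and 13.8 normalized counts. ESR1 was lower in every depleted library (adjusted p = 0.0632 by limma). It was called lower with DESeq2 (-2.84, adjusted p = 0.00175, 4.86% of all genes called lower). Without control replicate 3 it was also called lower (-3.52, adjusted p = 0.0286 by limma), where 6.49% of all genes were called lower. KRT14 was called higher with the replicate number as a block (2.69, adjusted p = 0.0304 by limma, 4.06% of all genes called higher).

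Histone mRNA as a whole did not separate the conditions. The summed normalized count of the 55 listed members was 39785, 91510 and 15629 in control replicates 1, 2 and 3, and 71525, 52426 and 59293 in depleted replicates 1, 2 and 3. Control replicate 2 was the highest of the 6 libraries and control replicate 3 the lowest, and all 3 depleted libraries lay between them. The means were 48975 ± 38766 (SD, n = 3) in control and 61081 ± 9674 (SD, n = 3) in depleted cells, a ratio of 1.25. The highest control library was 5.86 times the lowest, whereas the highest depleted library was 1.36 times the lowest. In bulk RNA, a different share of cells in S phase and a different amount of histone mRNA per cell cannot be told apart.

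**Figure D1:**
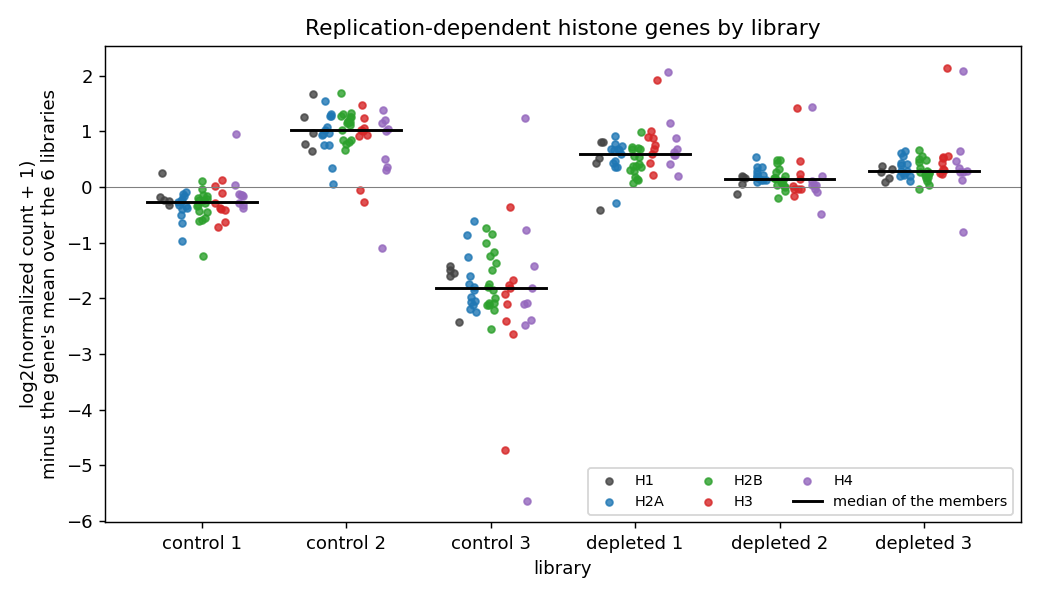
Each point is 1 of the 53 tested histone genes in 1 library, as log2(normalized count + 1) minus the gene's mean over the 6 libraries, coloured by class, and the black line is the median of the members. Each gene but H4C9 is higher in control 2 than in control 3, and the medians of the depleted libraries lie between those of these 2 libraries.

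Of the 55 members, 53 had a mean of at least 10 normalized counts over the 6 libraries and were tested, in a fit over all 16988 such genes. With limma, 0 of the 53 were called higher and 0 called lower without growth factors (Benjamini-Hochberg adjusted p under 0.05 and at least a 2-fold change). Of all genes tested, 4.36% were called higher and 1.97% lower. At an unadjusted p under 0.05 in either direction, limma and edgeR each counted 2 members, against 20% and 20.1% of all genes. The median log2 difference of the members, depleted minus control, was 0.71, beside -0.03 for all genes tested. The difference was above 0 in 50 of the 53 members, or 94.3%, and in 48.1% of all genes. The members share libraries and move together within a library, so they are not independent replicates of the condition.

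That median rested on single control libraries. Without control replicate 3 it was 0.02, with 28 of 53 members above 0, and without control replicate 2 it was 1.46, with 52 of 53 above 0. Without depleted replicate 1, the library with little CDH1 and KRT5, it was 0.57 with 50 of 53 above 0. In 44 of the 53 members, or 83%, all depleted values lay inside the range of the control values, against 29.6% of all genes tested. In 50 of the 53, or 94.3%, the control libraries stood in the order replicate 2, replicate 1, replicate 3 from high to low, against 24.2% of all genes.

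**Figure D2:**
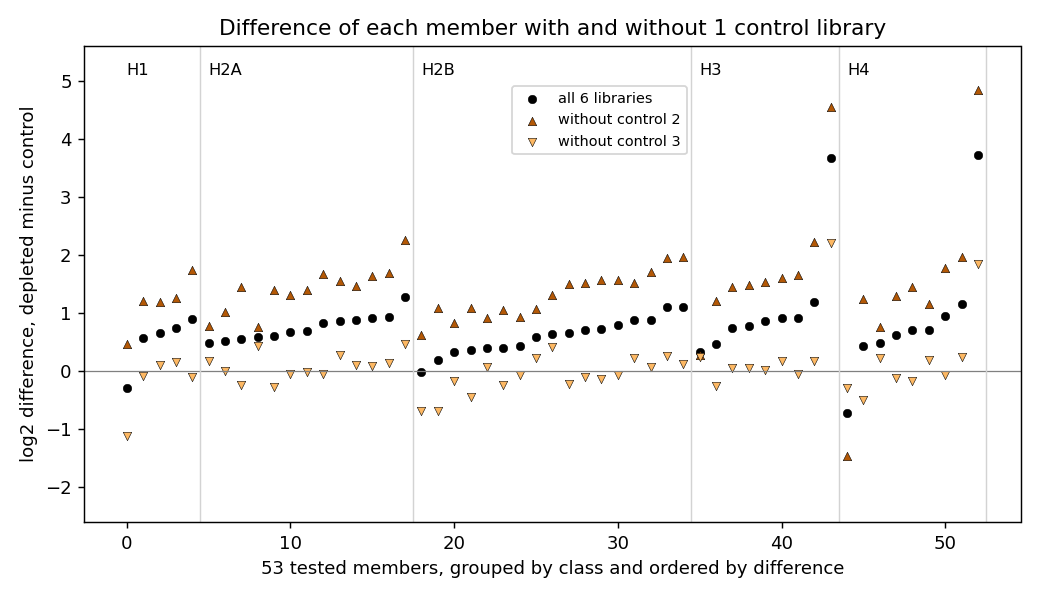
The log2 difference (depleted minus control) of each of the 53 tested members, grouped by class, is given for all 6 libraries (circles), without control 2 (upward triangles) and without control 3 (downward triangles). Without control 3 most members sit near 0, with a median of 0.02, and without control 2 the median is 1.46.

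Among the linker histones, H1-2 and H1-4 had the highest counts. Per kilobase of canonical transcript, H1-2 (chr6:26055740-26056470) had 8768 normalized counts per kilobase averaged over the 6 libraries, the highest of all members. Its normalized counts were 4846, 8945 and 1955 in control and 9960, 5887 and 6864 in depleted replicates 1 to 3. The groups overlapped, and the log2 difference was 0.75 ± 0.54 (SE), adjusted p = 0.509 by limma. H1-4 (chr6:26156329-26157115) had 5250 normalized counts per kilobase. Its values were 2970, 6359 and 1394 in control and 5025, 4196 and 4845 in depleted replicates, with a log2 difference of 0.65 ± 0.51 (SE) and an adjusted p of 0.547. All 3 depleted values of H1-4 lay inside the control range. H1-1, in contrast, was one of 3 members with a difference below 0 (-0.30 ± 0.70, SE, adjusted p = 0.869 by limma), with 415, 1114 and 122 normalized counts in control and 260, 317 and 371 in depleted replicates. Its difference was 0.47 without control replicate 2. Over the 5 H1 genes the median log2 difference was 0.65, and none was called. Their summed normalized counts were 11277, 24245 and 4296 in control and 20979, 14407 and 16302 in depleted replicates.

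H2A and H2B genes encode the partners of the H2A-H2B dimer. The 2 most abundant H2A genes by normalized count were H2AC6 and H2AC11. H2AC6 (chr6:26124145-26139116) had 1717, 2519 and 1103 normalized counts in control and 2548, 2124 and 2424 in depleted replicates, and the groups overlapped (log2 difference 0.49 ± 0.34, SE, adjusted p = 0.499 by limma). H2AC11 (chr6:27133043-27133535) had 964, 2636 and 369 in control and 1967, 1357 and 1473 in depleted replicates (log2 difference 0.69 ± 0.62, SE, adjusted p = 0.613). It thus lay within the control range in each depleted library. All 13 H2A genes had a difference above 0, with a median of 0.69 and a range from 0.49 to 1.28. The upper end was H2AC16, with 147, 719 and 60 normalized counts in control and 549, 370 and 452 in depleted replicates. It was named after its values were seen, because it was the single member called higher when control replicate 2 was left out (adjusted p = 0.0466 by limma, where 2.94% of all genes were called higher), and it was not called with all libraries (adjusted p = 0.423).

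Among H2B genes, H2BC5 (chr6:26158122-26171349) had 1617, 3158 and 779 normalized counts in control and 2093, 2217 and 2138 in depleted replicates. Its depleted values were the closest together of any member, with a highest to lowest ratio of 1.06, while its control values spanned 4.05-fold. The log2 difference was 0.44 ± 0.47 (SE), adjusted p = 0.678 by limma. H2BC8 (chr6:26216200-26216688) had 964, 2319 and 388 in control and 1668, 1821 and 1766 in depleted replicates (log2 difference 0.88 ± 0.56, SE, adjusted p = 0.454). In all 17 H2B genes the 3 depleted values lay inside the control range. The median log2 difference of the 17 was 0.63, and the third member below 0 apart from H1-1 and H4C9 was H2BC7, at -0.01, which was 0.62 without control replicate 2.

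H3 and H4 form the tetramer at the core of the nucleosome. H3C8 (chr6:26270918-26271413) had 737, 2045 and 290 normalized counts in control and 1835, 961 and 1167 in depleted replicates, and H3C7 (chr6:26250142-26250635) had 785, 1554 and 146 against 1436, 761 and 1116. Neither was called, with log2 differences of 0.74 ± 0.64 and 0.92 ± 0.76 (SE) and adjusted p-values of 0.592 and 0.574 by limma. H4C5 (chr6:26204610-26205021) was second to H1-2 per kilobase, at 6160 normalized counts. It had 2059, 3301 and 865 normalized counts in control and 3432, 2372 and 3200 in depleted replicates (log2 difference 0.72 ± 0.47, SE, adjusted p = 0.464). H4C3 (chr6:26103933-26104337) had 1322, 3188 and 337 in control and 2310, 1550 and 1726 in depleted replicates (log2 difference 0.71 ± 0.70, SE, adjusted p = 0.651). Control replicates 2 and 3 bounded the depleted values in each of these genes except H4C5, in which depleted replicate 1 was the highest library. The medians were 0.86 over the 9 H3 genes and 0.71 over the 9 tested H4 genes.

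**Figure D3:**
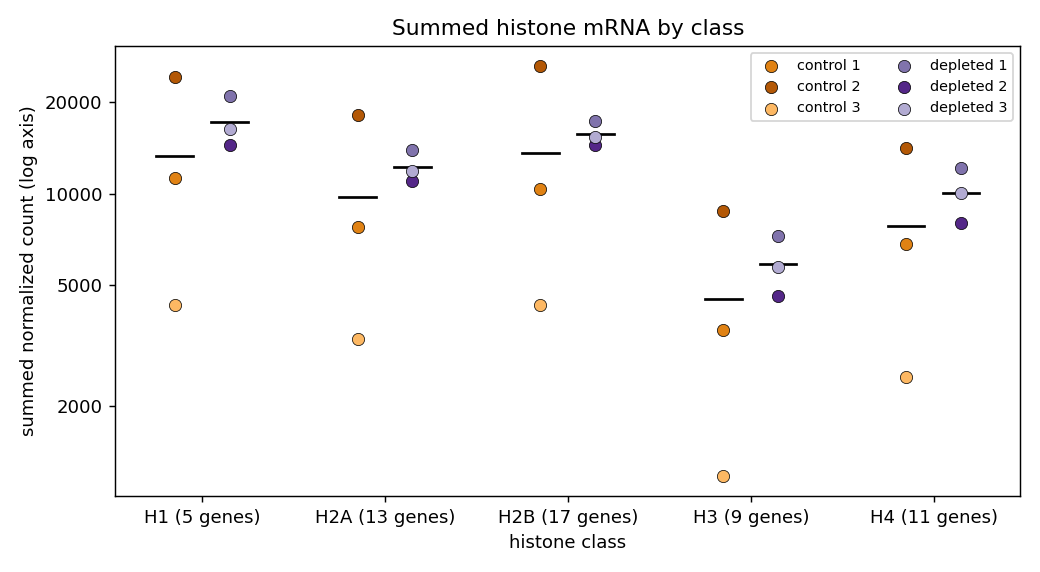
Summed normalized counts of each histone class are plotted on a log axis, 1 point per library, with the mean of the 3 libraries of each condition as a black line. In all 5 classes control 2 is the highest point and control 3 the lowest, and the ratio of the means is between 1.15 (H2B) and 1.30 (H3).

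The 5 classes moved together across libraries. Their summed counts in depleted over control cells had ratios of 1.30 for H1, 1.26 for H2A, 1.15 for H2B, 1.30 for H3 and 1.29 for H4. Control replicate 2 over control replicate 3 was 5.64, 5.46, 6.07, 7.43 and 5.63 in the same order. No test of a difference between classes was made.

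The position of the genes was compared next, since the members lie in separate clusters. The large cluster of chromosome 6 holds 47 listed genes in 3 blocks parted by more than 500000 bases. Its summed normalized counts were 35973, 83800 and 13204 in control and 64716, 46713 and 53531 in depleted replicates, and the 45 tested genes had a median log2 difference of 0.72. By block, from the lowest coordinates up, the medians were 0.68 over 27 genes, 0.80 over 5 and 0.89 over 13. Control replicate 2 over control replicate 3 was 5.59, 8.82 and 9.73 in the sums of these blocks. On chromosome 1 the 7 genes summed to 2934, 6383 and 1796 in control and 5213, 4620 and 4595 in depleted replicates, with a median log2 difference of 0.59. Control replicates 2 and 3 differed 3.55-fold in this sum and 6.35-fold in that of chromosome 6.

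The 2 most abundant chromosome 1 genes form a head-to-head pair. H2AC20 (chr1:149886918-149887411) had 820, 1664 and 410 normalized counts in control and 1328, 1070 and 1145 in depleted replicates (log2 difference 0.51 ± 0.47, SE, adjusted p = 0.621 by limma). H2BC21 (chr1:149884459-149886682), whose annotated transcript of 2224 bases is the longest of the members, had 939, 2174 and 686 in control and 1796, 1713 and 1547 in depleted replicates (log2 difference 0.59 ± 0.42, SE, adjusted p = 0.505). H4C16 (chr12:14767999-14771131) was the 1 listed gene on neither chromosome. It had 879, 1328 and 629 in control and 1596, 1092 and 1167 in depleted replicates, a log2 difference of 0.49 ± 0.34 (SE) and an adjusted p of 0.495. None of these 3 genes was called.

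In all, 12 pairs of tested members start head to head within 1000 bases of each other, 10 of them an H2A with an H2B gene. The annotated starts lay 170 to 979 bases apart, with a median of 240. Per kilobase, the first-named (H2A, or H2B beside H3) member of a pair was from 0.38 to 3.81 times its partner. The ends of this range were H2AC15 with H2BC15 and H2BC17 with H3C12. The annotated genes of H2BC15 and H3C12 are longer than their canonical transcripts, by which counts were divided, so these ratios depend on that choice. The log2 differences of partners were within 0.20 of each other for H2AC20 and H2BC21, H2AC25 and H2BC26, H2AC6 and H2BC4, H2AC8 and H2BC8, H2AC11 and H2BC11, H2AC12 and H2BC12, H2AC13 and H2BC13, and H2BC17 and H3C12. The farthest apart were H2AC7 and H2BC7, at 0.68 and -0.01.

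Promoters are shown for 4 genes, H2AC11, which shares its start region with H2BC11, the abundant H4C5, H4C13 with the largest difference above 0, and H4C9 with the largest below 0. The windows are those of RefSeq on GRCh38.p14, 300 bases around the annotated start, and were used for 49 of the 55 members. None was found for H3C11, and the window listed for H3C4 was left out because it lies away from that gene, at the start of H2AC7. The letters searched on both strands, which are capitalised, were CCAAT (the CCAAT box), TATAAA (the TATA box) and ATTTGCAT (the octamer). TATAAA can overlap its own reverse complement, and the other letters do not overlap it.
H2AC11 (chr6:27132793-27133092, plus strand): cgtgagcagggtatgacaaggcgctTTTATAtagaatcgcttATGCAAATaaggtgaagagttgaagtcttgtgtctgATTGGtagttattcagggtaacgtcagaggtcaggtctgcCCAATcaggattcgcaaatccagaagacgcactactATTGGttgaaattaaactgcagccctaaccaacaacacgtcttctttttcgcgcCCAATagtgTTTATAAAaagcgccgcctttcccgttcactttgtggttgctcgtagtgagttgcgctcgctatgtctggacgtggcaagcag
H4C5 (chr6:26204360-26204659, plus strand): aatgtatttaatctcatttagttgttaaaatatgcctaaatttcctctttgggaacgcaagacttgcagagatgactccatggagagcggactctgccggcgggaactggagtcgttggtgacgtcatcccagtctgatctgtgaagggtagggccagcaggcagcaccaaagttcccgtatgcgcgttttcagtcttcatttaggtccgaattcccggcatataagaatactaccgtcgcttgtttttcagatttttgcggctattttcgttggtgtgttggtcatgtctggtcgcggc
H4C13 (chr6:27873485-27873784, minus strand): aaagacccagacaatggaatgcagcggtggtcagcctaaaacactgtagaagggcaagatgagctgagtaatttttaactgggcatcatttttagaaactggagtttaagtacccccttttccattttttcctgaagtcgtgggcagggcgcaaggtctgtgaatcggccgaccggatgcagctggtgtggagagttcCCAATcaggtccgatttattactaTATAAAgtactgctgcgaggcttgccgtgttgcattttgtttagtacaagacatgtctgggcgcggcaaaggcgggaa
H4C9 (chr6:27139032-27139331, plus strand): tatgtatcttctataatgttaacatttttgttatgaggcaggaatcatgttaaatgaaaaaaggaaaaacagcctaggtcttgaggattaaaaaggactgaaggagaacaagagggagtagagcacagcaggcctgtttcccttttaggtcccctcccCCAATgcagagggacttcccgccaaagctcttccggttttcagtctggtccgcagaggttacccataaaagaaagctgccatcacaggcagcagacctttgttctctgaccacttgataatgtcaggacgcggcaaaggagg
CCAAT was found in 42 of the 49 member promoters, or 85.7%, against 34.6% of all 35116 promoters in the table. It was in every H1, H2A, H2B and H3 window and in 2 of the 9 H4 windows, which were those of H4C13 and H4C9. TATAAA was in 67.3% of the member windows and 11.5% of all. The octamer was in 76.5% of the 17 H2B windows and 75% of the 12 H2A windows and in none of the H1, H3 or H4 windows, against 1.77% of all. H2A and H2B genes in head-to-head pairs have overlapping windows and are not independent in these shares. A match is a description of letters, not of a bound site.

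The 2 members with the largest differences above 0 were neighbours on the minus strand of the third chromosome 6 block. H4C13 (chr6:27873148-27873534, ENSG00000275126) had 38.9, 62.7 and 0 normalized counts in control and 207.8, 133.1 and 210.2 in depleted replicates. H3C11 (chr6:27871845-27872346, ENSG00000275379), named after its values were seen, had 15.0, 24.6 and 0 in control and 98.9, 70.2 and 116.3 in depleted replicates. All 3 depleted values were above all 3 control values in both genes, and these were the only tested members whose groups did not overlap, where 13.5% of all genes had every depleted value above and 12.1% every depleted value below. The log2 difference was 3.73 ± 1.38 (SE) for H4C13 (adjusted p = 0.170 by limma) and 3.66 ± 1.12 (SE) for H3C11 (adjusted p = 0.102), so neither passed the threshold.

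The size of these differences depends on the library at 0. In control replicate 3, 0 reads were recovered for either gene, which allows up to 3 reads or 2.95 normalized counts, while the depleted libraries held 108, 107 and 52 reads of H3C11 and 227, 203 and 94 of H4C13. Without control replicate 3 the differences were 1.84 for H4C13 and 2.22 for H3C11, and both were then called (adjusted p = 0.0250 and 0.0203 by limma), where 8.08% of all genes were called higher. H3C11 was also called with DESeq2 (log2 difference 2.86, adjusted p = 0.0154, 7.58% of all genes called higher), after the length correction described below (adjusted p = 0.0409, 4.96%) and with a pseudocount of 10 (4.19%). With edgeR 0 members were called, with an adjusted p of 0.153 for H3C11 and 0.243 for H4C13, against 4.02% of all genes called higher. H3C11 had 108 normalized counts per kilobase and H4C13 281, against 3652 for H1-5, the next listed member at lower coordinates.

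**Figure D4:**
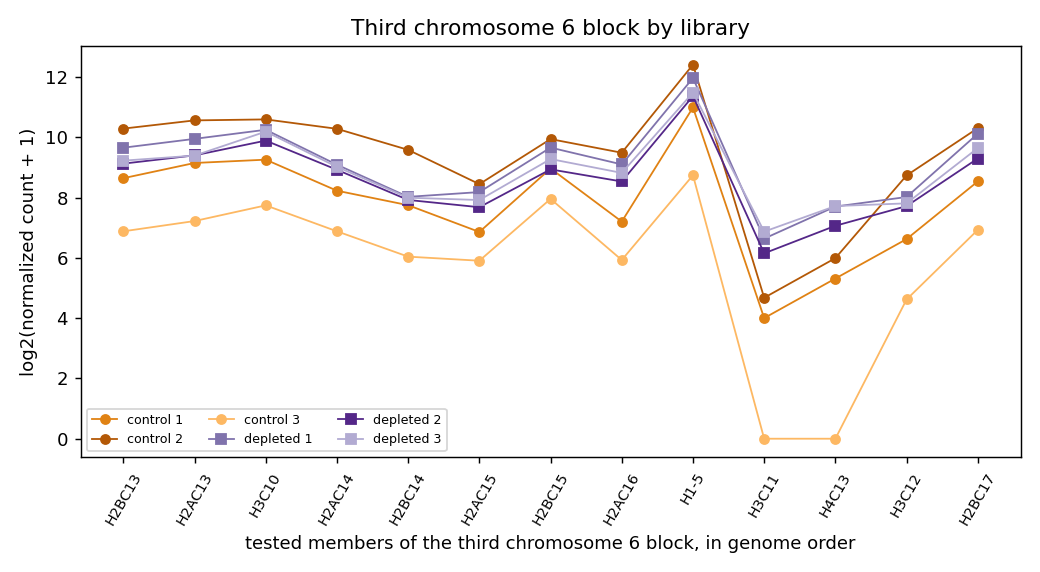
The 13 tested members of the third chromosome 6 block are in genome order on the x axis, and each line is 1 library, as log2(normalized count + 1). In H3C11 and H4C13 the 3 depleted libraries lie above all 3 control libraries, and control 3 is at 0, while in the other 11 genes control 2 lies above all 3 depleted libraries.

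The largest difference below 0 was that of H4C9 (chr6:27139282-27139678), a member near the detection limit. It had 17.5, 3.5 and 21.6 normalized counts in control and 10.1, 5.9 and 4.5 in depleted replicates, with 2 recovered reads in depleted replicate 3. The groups overlapped, and the log2 difference was -0.73 ± 0.80 (SE), adjusted p = 0.689 by limma. Unlike the other tested members, H4C9 was higher in control replicate 3 than in control replicate 2. The 2 members below a mean of 10 were also H4 genes. H4C11 had 2.5, 5.3 and 5.9 normalized counts in control and 18.3, 11.1 and 11.2 in depleted replicates, and H4C12 had 1.3, 7.6 and 0.98 against 10.98, 5.9 and 6.7. Neither was tested.

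Copies of one another limit what counting can assign to single members. Of the 55 listed members, 43 had no 100-base stretch of their canonical transcript that recurred elsewhere in hg38. H4C12 and H4C11 had the least unique sequence, with 8.68% and 9.31% of their 100-base windows found once, followed by H2AC14 (38.2%) and H2AC13 (41.2%). All windows of H3C11, H4C13, H4C9 and H2AC16 were unique. Of the 14 members that are not analysed here, 7 had no unique window, while in the other 7 all windows were unique. None of the 55 listed members lacked unique windows altogether. How the authors' counting treated reads that match several places is not given in the sources used here. The annotated gene is longer than the canonical transcript in 14 of the 55 members, and the model of H2BC4 spans H4C3 on the opposite strand, so values of such genes are uncertain if the counting did not use strand.

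Because the members are short, transcript length was set beside the result. Their canonical transcripts had a median of 487 bases and 1 exon in each of the 53 tested members, while protein-coding genes with a mean of at least 50 had a median of 3500 bases (11388 genes). Across these genes the deviation of a library from the gene's mean went with transcript length in some libraries, with a Spearman correlation of -0.36 in control replicate 2 and 0.34 in control replicate 3. It was 0.24 in depleted replicate 2, -0.19 in depleted replicate 3, -0.07 in control replicate 1 and -0.01 in depleted replicate 1. These describe single libraries across genes, which are not independent. Among 315 protein-coding genes of at most 800 bases that are no members, control replicate 2 was 2.95 times control replicate 3 at the median, whereas it was 7.26 times over the members. After a correction of each library for transcript length, the gap between these 2 libraries in the members' median fell from 3.03 to 1.58 on the log2 scale, and the median difference between conditions was 0.81. The short genes that are no members had a median log2 difference of -0.17.

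Genes of DNA replication and S phase entry, here called S phase genes, were compared as a list, since histone mRNA depends on replication. The 14 genes, which include the MCM helicase subunits, PCNA and cyclins E and A2, were all tested. None was called, against 4.36% of all genes called higher and 1.97% lower. There were 9 differences above 0 and 5 below, with a median of 0.02. As for the histone genes, the median rested on single control libraries, at -0.66 without control replicate 3 and 0.70 without control replicate 2. Without control replicate 3, CCNA2 (cyclin A2) was called lower (-1.63, adjusted p = 0.0089 by limma), where 6.49% of all genes were called lower. MCM7, a helicase subunit, had 3015, 5381 and 2145 normalized counts in control and 2271, 1909 and 1816 in depleted replicates (log2 difference -0.71 ± 0.37, SE, adjusted p = 0.334 by limma). MCM4, another helicase subunit, had 2573, 5222 and 975 against 3484, 2735 and 2916 (0.36 ± 0.55, SE, adjusted p = 0.778). As in the histone genes, control replicates stood in the order 2, 1, 3 in 14 of the 14 genes, with a median ratio of 5.33 between control replicates 2 and 3. The spread of the histone genes among control libraries moved with that of the S phase genes, and its source was not tested.

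Uncorrected for transcript length, the ratio of histone mRNA to these S phase genes separated the conditions. This ratio also depends on the S phase sum, at 19294, 34351 and 7136 in control and 20364, 14679 and 14862 in depleted replicates. The sum of the 55 histone genes over the sum of the 14 S phase genes was 2.06, 2.66 and 2.19 in control and 3.51, 3.57 and 3.99 in depleted replicates. The means were 2.31 ± 0.32 and 3.69 ± 0.26 (SD, n = 3 each), and the groups did not overlap. A ratio within a library does not depend on how libraries are scaled. The ratio was chosen after the values were seen and is given as a description, with no test. On medians of log2 values the histone genes lay 0.62, 0.43 and 1.05 below the S phase genes in control and 0.32, 0.21 and 0.10 below them in depleted replicates, again without overlap. After the length correction, however, the depleted and control values of this difference overlapped, at -0.87, -0.999 and -0.31 in control and -0.32, 0.02 and -0.20 in depleted replicates.

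**Figure D5:**
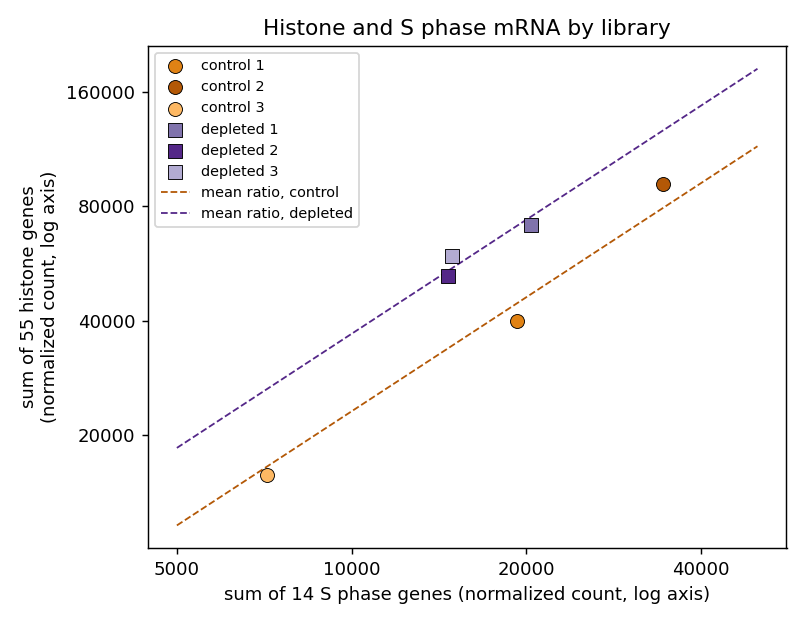
Each point is 1 library, with the summed normalized count of the 14 S phase genes on the x axis and of the 55 histone genes on the y axis, both log scaled, and dashed lines mark the mean ratio of each condition (2.31 in control, 3.69 in depleted). The 3 depleted libraries lie above the line of the control ratio.

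The factors that make and remove histone mRNA were compared as a list of 18 genes. It holds NPAT, SLBP, the U7 snRNP proteins, the cleavage factors and the decay factors. By limma 0 were called, against 4.36% of all genes called higher and 1.97% lower. There were 5 differences above 0 and 13 below, with a median of -0.16. Every depleted value lay above every control value in LSM11 and ZNF473, and below in SRRT and TUT7. That is 2 of the 18 each way, against 13.5% and 12.1% of all genes. CPSF2, part of the cleavage complex, had 3894, 3264 and 2084 normalized counts in control and 2106, 1936 and 1880 in depleted replicates (log2 difference -0.60 ± 0.31, SE, adjusted p = 0.335 by limma). UPF1, a helicase of mRNA decay, had 2184, 2254 and 2520 against 2570, 2202 and 1887 (-0.07 ± 0.26, SE, adjusted p = 0.922). SLBP itself had 906, 1465 and 393 in control and 886, 972 and 997 in depleted replicates, with control replicates in the order 2, 1, 3. That order was found in 7 of the 18 genes of this list, against 24.2% of all genes.

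Replication-independent histone variants, many of which are made throughout the cell cycle from polyadenylated mRNA, were not called either with all 6 libraries. Of all genes, 4.36% were called higher and 1.97% lower by limma. Among 11 genes 7 differences were above 0 and 4 below, with a median of 0.15. Control replicates stood in the order 2, 1, 3 in 4 of the 11. One was H2AX, with 415, 1057 and 242 in control and 1157, 761 and 771 in depleted replicates (0.89 ± 0.51, SE, adjusted p = 0.392 by limma). Without control replicate 3, H2AZ1 was called lower (-1.05, adjusted p = 0.0242 by limma), where 6.49% of all genes were called lower. H3-3B, which encodes H3.3, had 7570, 7662 and 3895 normalized counts in control and 5811, 9188 and 8633 in depleted replicates (log2 difference 0.34 ± 0.38, SE, adjusted p = 0.695 by limma). MACROH2A1, encoding a large H2A variant, had 5885, 7091 and 4952 against 4280, 6477 and 6343 (-0.08 ± 0.32, SE, adjusted p = 0.931). In MACROH2A2, encoding a related large variant, every depleted value exceeded every control value, with 197, 424 and 239 in control and 429, 575 and 827 in depleted replicates, and its adjusted p was 0.154 by limma. Histone chaperones and the acetyltransferase HAT1 held 10 genes with 0 called, beside the same shares of all genes. There were 3 differences above 0 and 7 below, with a median of -0.08. Control replicates stood in the order 2, 1, 3 in 6 of the 10. NAP1L1, an H2A-H2B chaperone, had 5785, 6543 and 4874 in control and 5675, 5407 and 5026 in depleted replicates (-0.09 ± 0.28, SE, adjusted p = 0.913). ATRX, a chromatin remodeller that works with DAXX, had 3845, 2268 and 5554 against 2930, 4689 and 2511 (-0.16 ± 0.41, SE, adjusted p = 0.878).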

How the data were processed

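Total RNA of MCF10A cells was depleted of ribosomal RNA and sequenced as strand-specific single-end libraries. Per the labels, processing by the authors used cutadapt, TopHat2 on hg38, HTSeq and DESeq2, and the deposited signal values are reads per gene divided by the DESeq2 size factor of the library. They are not divided by gene length. The strand setting, the treatment of reads matching several places and the filter on low genes are not given in the sources used here. Whole reads were recovered from 100% of the values (within 0.01 of a whole number). Depth was 14515993, 28672630 and 15342856 reads on genes in control and 17047310, 24407075 and 7472418 in depleted replicates 1 to 3.

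Names and positions came from Gencode v44, which is newer than the annotation used for counting. It names 18913 of the 19198 listed identifiers. Genes averaging 10 or more normalized counts entered a test with limma 3.58.1 (lmFit, and eBayes with trend, in R 4.3.3) on log2(normalized count + 1), 3 against 3, with Benjamini-Hochberg adjustment over 16988 genes. Adding 1 shrinks the fold change of low genes on this scale. Where control replicate 3 was at 0, however, the limma difference exceeded that of edgeR and DESeq2. It was 3.73 for H4C13, against 2.48 with edgeR and 2.46 with DESeq2. For H3C11 it was 3.66, against 2.86 with each. An exact permutation test of 3 against 3 cannot give a p below 0.1, so none was run. Alternatives were edgeR 4.0.16 and DESeq2 1.42.0 on the recovered reads, other pseudocounts (0.5 and 10), filters and scalings, a lowess correction for transcript length, the replicate number as a block, and each library left out. The procedure was also run on simulated data in which each gene was drawn independently. These lack the shift among control libraries that the members share, so the run cannot speak to that shift. Named genes are the 2 members with the highest mean in each class and on each chromosome, the largest differences above and below 0, and called genes of each list or otherwise its 2 highest. Other named genes were chosen after their values were seen. The members and lists were chosen with earlier results of these data known. Figures were made with matplotlib 3.10.9 in Python 3.11.15.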

Additional observations from a re-analysis of the deposited data

How the results depend on the processing

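Of the 53 tested histone genes, 0 were called lower under every alternative run, and 0 were called higher except for 1 with DESeq2, 1 after the length correction, 1 with a pseudocount of 10, and between 0 and 2 when libraries were left out. The replicate block gave 0 histone genes called higher, 967 genes called over all and a members' median of 0.71. Deviations of same-numbered libraries from the mean of their condition correlated at -0.07, -0.28 and -0.32, and those of other pairs at -0.07 to 0.29. These deviations sum to 0 within a condition, so the correlations cannot show whether same-numbered libraries were handled together. The median log2 difference of the members was 0.35 with DESeq2, 0.38 with edgeR, 0.81 after the length correction with or without the block, 0.68 to 0.78 under the pseudocounts, filters and scalings, and 0.02 to 1.46 when libraries were left out. Over all genes 1076 were called by limma, 971 with edgeR, 2112 with DESeq2 and 453 to 2474 when libraries were left out. Leaving out a library turned the sign of many genes. Without control replicate 3, 28 of the 53 members were above 0, against 50 with all libraries. Among the genes that turned were H2AC11 (-0.014 to 1.40), H2BC5 (-0.073 to 0.94), H3C7 (-0.047 to 1.66) and H4C3 (-0.16 to 1.46). UPF1 (-0.18 to 0.039), MACROH2A1 (-0.21 to 0.12), NAP1L1 (-0.20 to 0.014) and ATRX (-0.51 to 0.14) turned as well. So did MCM4 (-0.28 to 0.93), SLBP (-0.28 to 0.67), H1-1 (-1.12 to 0.47) and H2BC7 (-0.69 to 0.62). Quantile normalization turned UPF1 (0.048), MACROH2A1 (0.066), NAP1L1 (0.050) and H2BC7 (0.044). H2BC7 was also above 0 with the same total (0.038) and after the length correction with or without the block (0.10). The cause was not tested. The median SE of the members was 0.66 on the log2 scale with 3 libraries a condition, and their median difference of 0.71 is also under the 2-fold limit of a call.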
